A study of Bos taurus with 6 samples.

Results

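The proteasome is the cell's main protease for proteins tagged with ubiquitin. Its barrel-shaped core stacks rings of alpha subunits, which form the gate, on rings of beta subunits, of which PSMB5, PSMB6 and PSMB7 carry the cutting sites. A regulatory cap binds the core: its base holds a ring of ATPases that unfold the substrate, and its lid removes the ubiquitin chain. Interferon replaces the cutting subunits by PSMB8, PSMB9 and PSMB10, which gives the immunoproteasome, and induces the activator subunits PSME1 and PSME2. In skeletal muscle the ubiquitin and proteasome pathway is known as the main route for the breakdown of contractile proteins.

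The genes described here were chosen by their symbols: PSMA, PSMB, PSMC, PSMD or PSME followed by a digit, on probe sets that the platform annotation gives exactly 1 gene. The rule found 42 of 24016 tested probe sets, which stand for 36 of 9155 genes. Where a gene had several probe sets, the one with the highest mean over 6 arrays was used. Of the 36, 35 are subunits, activators or assembly chaperones of the proteasome. The remaining gene, PSME3IP1, carries a related symbol because its product binds an activator, and it is no subunit. By role there were 6 alpha subunits, 7 constitutive and 3 immunoproteasome beta subunits, 6 ATPases, 3 base subunits without ATPase activity, 4 lid subunits, 3 base assembly chaperones and 3 activators. PSMA2, PSMA8, PSMB11, PSMD3, PSMD7, PSMD8, PSMD12 and PSME3 were not analysed here. All 36 genes had a mean above the first quartile of the tested probe sets, and 34 above the third. Of all 9155 genes, 8050 were above the first and 3681 above the third.

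Muscle came from the longissimus thoracis, a long back muscle, of 6 castrated male Japanese Black cattle, each on an array of its own. The 3 vitamin A restricted steers had no vitamin A supplement, and the 3 supplemented steers were given it by mouth every week at 296.8 IU per kg body weight. Steers joined at 13 to 14 months of age and were fattened for 7 months, with a daily gain given as 1.0 kg for both diets. At sampling, restricted steers were 598.3 ± 11.4 days old and supplemented steers 610.0 ± 9.17 days (SD, n = 3 each). An exact permutation test of the ages, two-sided, gave p = 0.2, where 0.1 is the smallest p it allows.

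The arrays carried the muscle label: all 8 measured fibre markers, among them ACTA1, CKM and MYH7, had means above the third quartile of the tested probe sets. Of 12 measured leukocyte markers 1 did, and of 5 adipocyte markers 4, against 3681 of all 9155 genes. The adipocyte markers had a higher mean in restricted steers in 5 of 5, against 49.5% of all genes (median 1.15 within-group SDs). Their summed deposited values ran from 32.49832 to 32.52721 in restricted steers and from 32.48249 to 32.51495 in supplemented steers. The adipokine CFD was higher without overlap of the diets, at 6.35 SDs (limma unadjusted p = 0.000717, adjusted p = 1.00), and the fibre myosin MYH1 lower without overlap, at -3.46 SDs (limma unadjusted p = 0.00836, adjusted p = 1.00). Over all genes, 4.15% were higher and 4.59% lower without overlap. The part of fat and fibres in the results below was not tested. Deposited values are on a log2-like scale of unstated base, and they differed very little between arrays. Over the 36 proteasome genes the highest and lowest array were a median of 23.5 millionths of a deposited log2 unit apart, from 0.462 for PSMB8 to 302.3 for PSMD14. The median was 0.677 millionths over all tested probe sets and 1.23 over all genes. Over genes with a mean above the third quartile, where 34 of the 36 lie, it was 6.92 millionths. A difference is therefore not read as a fold change. It is given in millionths of a deposited log2 unit, always restricted minus supplemented, or in within-group standard deviations (SDs) of the same gene. In bulk tissue fewer cells of a type and less RNA per cell cannot be told apart.

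The diets were compared with limma over all probe sets, and 0 of the 36 proteasome genes passed the adjusted threshold of 0.05, where 0.00416% of all probe sets did (DHRS3, a retinaldehyde reductase, alone). At an unadjusted p under 0.05 there was 1 proteasome gene, PSMD13 of the lid, higher in restricted steers, against 2.15% of all genes in that direction and 4.62% in either. At that threshold 0 of the 36 were lower, against 2.47% of all genes. The groups did not overlap in PSMD13 alone, where the restricted steers were higher, against 4.15% of all genes in that direction, 4.59% in the opposite one and 8.74% in either. For the other 35 genes the difference between the diets was smaller than 1 within-group SD, as it was in 6777 of all 9155 genes.

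**Figure D1:**
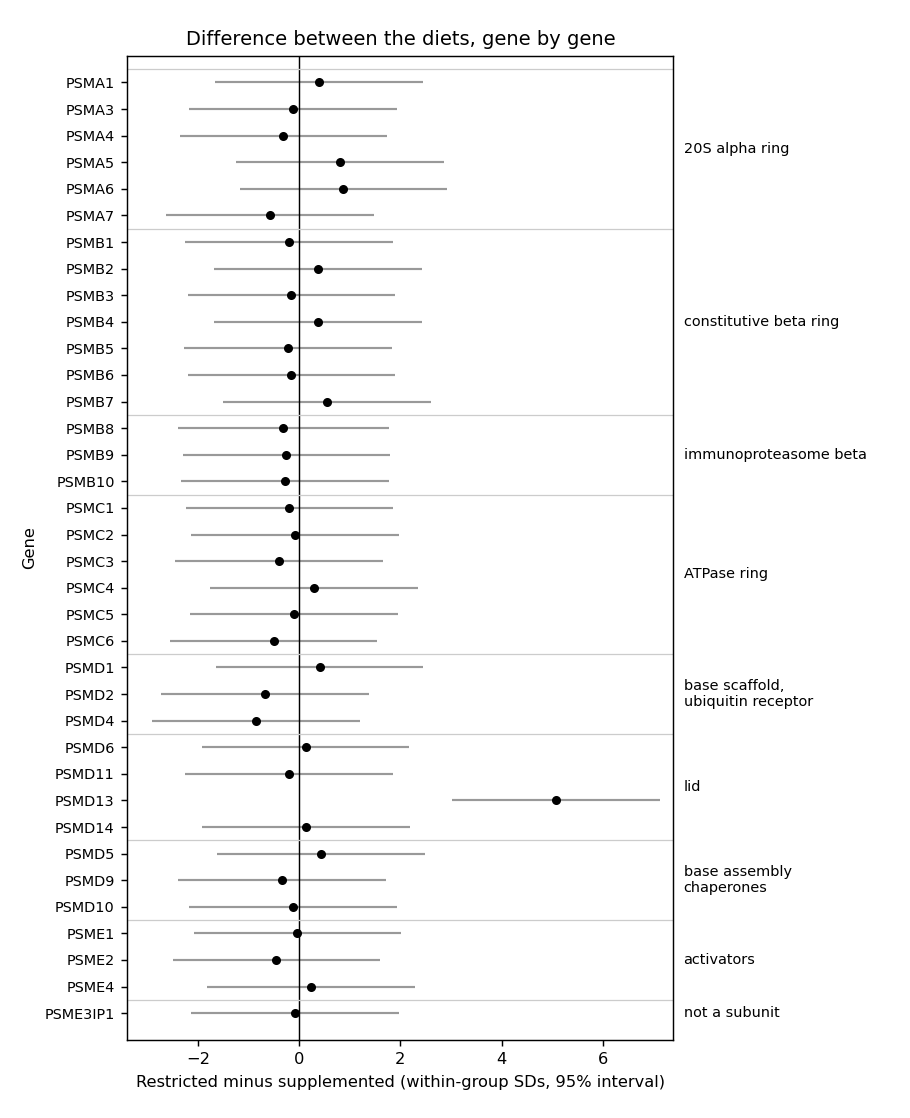
Difference between the diets for each of the 36 genes (points, restricted minus supplemented, in within-group SDs of the gene) with its unadjusted 95% interval from limma (lines), ordered by role from top to bottom. PSMD13 lies at 5.08 SDs, and every other gene lies between -0.853 and 0.873 SDs with an interval that includes 0.

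PSMD13 is a structural subunit of the lid. Its values stood at 20.5, 10.7 and 23.8 millionths from the gene's mean of 5.65 in restricted steers 1 to 3, against -19.5, -10.2 and -25.3 in supplemented steers 1 to 3. All 3 restricted steers lay above all 3 supplemented ones, and the second steer of either diet lay nearest to the other diet. The difference was 36.7 ± 5.56 millionths (SE, n = 3 each) or 5.08 within-group SDs, with a 95% interval of 21.8 to 51.5 millionths. The limma unadjusted p was 0.00182 and the adjusted p was 1.00 over 24016 probe sets, of which PSMD13 ranked 29 by p. With quantile normalization, which made 15456 of the 24016 probe sets equal on all arrays, the difference was 0.352 SDs. The annotation gives PSMD13 as the only gene of 1 probe set, so no second one was set beside it.

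The other lid subunits had no such difference. PSMD14, the enzyme that cuts the ubiquitin chain off the substrate, had the widest spread of all 36 genes. It stood at -124.6, 177.7 and -28.0 millionths in restricted steers and at 20.8, -118.7 and 72.8 in supplemented steers. The extremes of PSMD14 were restricted steers 1 and 2, and its difference between the diets was 0.129 SDs. PSMD6 and PSMD11, 2 scaffold subunits of the lid, differed by 0.123 and -0.200 SDs.

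In the base, the differences were small and mostly negative. The subunits without ATPase activity were the scaffolds PSMD1 at 0.400 SDs and PSMD2 at -0.683 SDs, and PSMD4, a ubiquitin receptor, at -0.853 SDs. PSMD4 stood at -51.2, 14.1 and -7.37 millionths in restricted steers and at -1.68, -10.2 and 56.3 in supplemented steers (limma unadjusted p = 0.324). Its groups overlapped, and the lowest value belonged to restricted steer 1 and the highest to supplemented steer 3.

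Of the 6 ATPases that form the unfolding ring, 1 had a higher and 5 a lower mean in restricted steers. PSMC6 stood at -25.8, 5.82 and -4.48 millionths in restricted steers, against 37.3, -40.4 and 27.6 in supplemented steers, with overlapping groups. The difference of PSMC6 was -0.509 SDs (limma unadjusted p = 0.542). PSMC1, PSMC2, PSMC3 and PSMC5 had differences from -0.406 SDs in PSMC3 to -0.0828 SDs in PSMC2, and PSMC4 had 0.287 SDs. Chaperones that assemble the base without staying in it were PSMD5 at 0.435 SDs (limma unadjusted p = 0.60), PSMD9 at -0.336 SDs and PSMD10 at -0.125 SDs. PSMD5 stood at -1.39, 10.5 and -5.14 millionths in restricted steers and at -0.312, -4.39 and 0.729 in supplemented steers, so that the restricted steers held its highest and its lowest value.

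Differences between the diets were small in the core particle as well. In the alpha ring, 3 of 6 genes had a higher mean in restricted steers: PSMA1 at 0.390, PSMA5 at 0.804 and PSMA6 at 0.873 SDs. PSMA3 at -0.121, PSMA4 at -0.316 and PSMA7 at -0.580 SDs had a lower one. PSMA6 stood at -1.04, 3.68 and -0.120 millionths in restricted steers, against -1.24, -1.64 and 0.367 in supplemented steers. Restricted steer 2 alone was above the highest supplemented steer in PSMA6 (limma unadjusted p = 0.315), and its difference was below 0 once array medians were made equal and after quantile normalization.

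The constitutive cutting subunits were measured at 3 probe sets. PSMB5, the chymotrypsin-like subunit, stood at -17.1, 20.8 and -8.31 millionths in restricted steers and at 5.80, -2.29 and 1.18 in supplemented steers. PSMB6, the caspase-like subunit, stood at -8.76, 6.52 and 0.486 millionths in restricted steers and at -1.27, -5.54 and 8.56 in supplemented steers. PSMB7, the trypsin-like subunit, stood at -11.9, 17.9 and 5.45 millionths in restricted steers and at -14.2, -7.26 and 10.05 in supplemented steers. In all 3 genes the groups overlapped, restricted steer 1 was the lowest restricted steer and restricted steer 2 the highest. Their differences were -0.219, -0.156 and 0.552 SDs, the last with a limma unadjusted p of 0.509. Without restricted steer 2, PSMB5 was at -2.92 SDs with a limma unadjusted p of 0.0325. The beta subunits without a cutting site were PSMB1 at -0.202, PSMB2 at 0.365, PSMB3 at -0.157 and PSMB4 at 0.373 SDs.

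Each of the 5 immunoproteasome members had a lower mean in restricted steers, by less than 0.5 SDs, where 50.5% of all genes had a lower mean. Without supplemented steer 2 none of the 5 had a lower mean, without restricted steer 2 the count was 2 and with age as a covariate it was 1. For those settings 50.2%, 49.9% and 47.5% of all genes were lower. PSMB8, which takes the place of PSMB5, stood at 0.0553, -0.253 and 0.110 millionths in restricted steers and at -0.133, 0.209 and 0.0103 in supplemented steers (-0.315 SDs, limma unadjusted p = 0.706). PSMB9, which takes the place of PSMB6, stood at 1.18, -2.45 and 0.254 millionths in restricted steers and at -3.21, 3.27 and 0.965 in supplemented steers (-0.253 SDs). PSMB10, which takes the place of PSMB7, stood at -1.73, 0.400 and -0.0307 millionths in restricted steers and at -4.19, 4.54 and 1.00 in supplemented steers (-0.282 SDs). The supplemented group held the highest value of all 3 genes, in its second steer.

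Activators open the gate of the core. PSME1 and PSME2 are the subunits of the interferon-induced activator. PSME1 stood at 4.32, -13.0 and 7.96 millionths in restricted steers and at -11.9, 15.8 and -3.11 in supplemented steers (-0.0382 SDs). PSME2 stood at 0.145, -1.14 and -0.362 millionths in restricted steers and at -1.37, 3.64 and -0.910 in supplemented steers (-0.451 SDs, limma unadjusted p = 0.587). Supplemented steer 2 was the highest of 6 in PSME1 and PSME2 too, and the mean of PSME2 was higher in restricted steers without it, at 1.22 SDs. PSME4, an activator of another family, differed by 0.225 SDs and was highest in restricted steer 3. PSME3IP1, no subunit, differed by -0.0836 SDs.

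**Figure D2:**
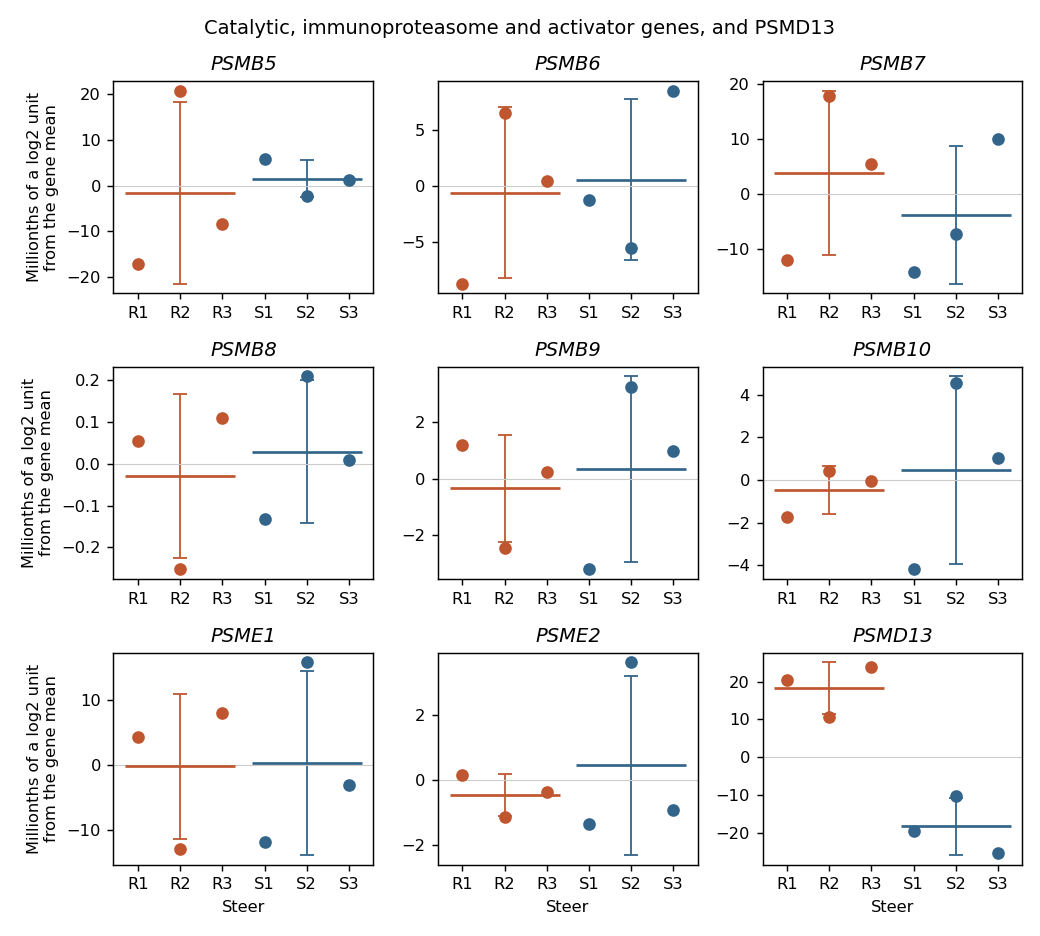
Value of each steer in millionths of a deposited log2 unit from the gene's mean over 6 arrays, for the constitutive cutting subunits (top row), the immunoproteasome cutting subunits (middle row), PSME1, PSME2 and PSMD13 (bottom row). Restricted steers are R1 to R3 in orange and supplemented steers S1 to S3 in blue; horizontal lines are group means and error bars are SDs (n = 3), on a scale that differs between panels. Diet separates the steers in PSMD13 alone, and S2 is highest in the 5 immunoproteasome members.

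Over all 36 genes, 13 had a higher and 23 a lower mean in restricted steers, where 49.5% of all genes were higher. The median difference was -0.123 SDs over the 36 genes and -0.00788 SDs over all 9155. By role the medians were 0.135 SDs for the alpha ring, -0.156 for the constitutive beta ring, -0.282 for the immunoproteasome beta subunits, -0.153 for the ATPases, -0.683 for the other base subunits, 0.126 for the lid, -0.125 for the base chaperones and -0.0382 for the activators. Counts and medians rest on few steers: leaving out 1 steer turned the sign of the median in each of the 8 roles. Without restricted steer 1, 27 of 36 genes were higher in restricted steers, without supplemented steer 3 the count was 23, and with age as a covariate it was 28. For the same 3 settings 49.9%, 51.9% and 52.5% of all genes were higher.

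The proteasome genes varied together between steers fed the same diet. The 30 genes outside the immunoproteasome were low in restricted steer 1, where 28 of 30 lay below their own mean (4695 of all 9155 genes). They were high in restricted steer 2, where 26 of 30 lay above it, against 46.7% of all genes. Among supplemented steers, 27 of 30 were below their mean in steer 2, against 4587 of all 9155 genes. In steer 3, 26 of 30 were above it, against 53.2% of all genes. Among genes with a mean above the third quartile of probe sets the share was 62.3%. Restricted steer 1 was the lowest of 6 in 15 of the 30 genes and the highest in 0, against 18.3% and 16.3% of all genes. Restricted steer 2 was the highest in 12, against 15.6% of all genes. Supplemented steer 3 was the highest in another 12, against 20.7% of all genes and 27.1% of genes above the third quartile. Restricted steer 2 exceeded restricted steer 1 in 26 of 30 genes, against 48.8% of all genes. Supplemented steer 3 exceeded supplemented steer 2 in 26 of 30, against 52.6% of all genes and 61.0% of genes with a mean above the third quartile of probe sets.

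This order was seen in most genes of every part of the 26S particle and in most of its base chaperones. Restricted steer 2 exceeded restricted steer 1 in 6 of 6 ATPases, 3 of 3 other base subunits, 3 of 3 base chaperones, 6 of 7 constitutive beta subunits, 5 of 6 alpha subunits and 3 of 4 lid subunits. The exceptions were PSMB1, PSMA4 and PSMD13 with the activator PSME4. Supplemented steer 3 exceeded supplemented steer 2 in 6 of 6 alpha subunits, 6 of 7 constitutive beta subunits and 5 of 6 ATPases. It did so in 3 of 3 other base subunits, 3 of 4 lid subunits and 2 of 3 base chaperones. PSMD13 had its lowest value in supplemented steer 3, where 26 of the other genes stood above their mean.

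**Figure D3:**
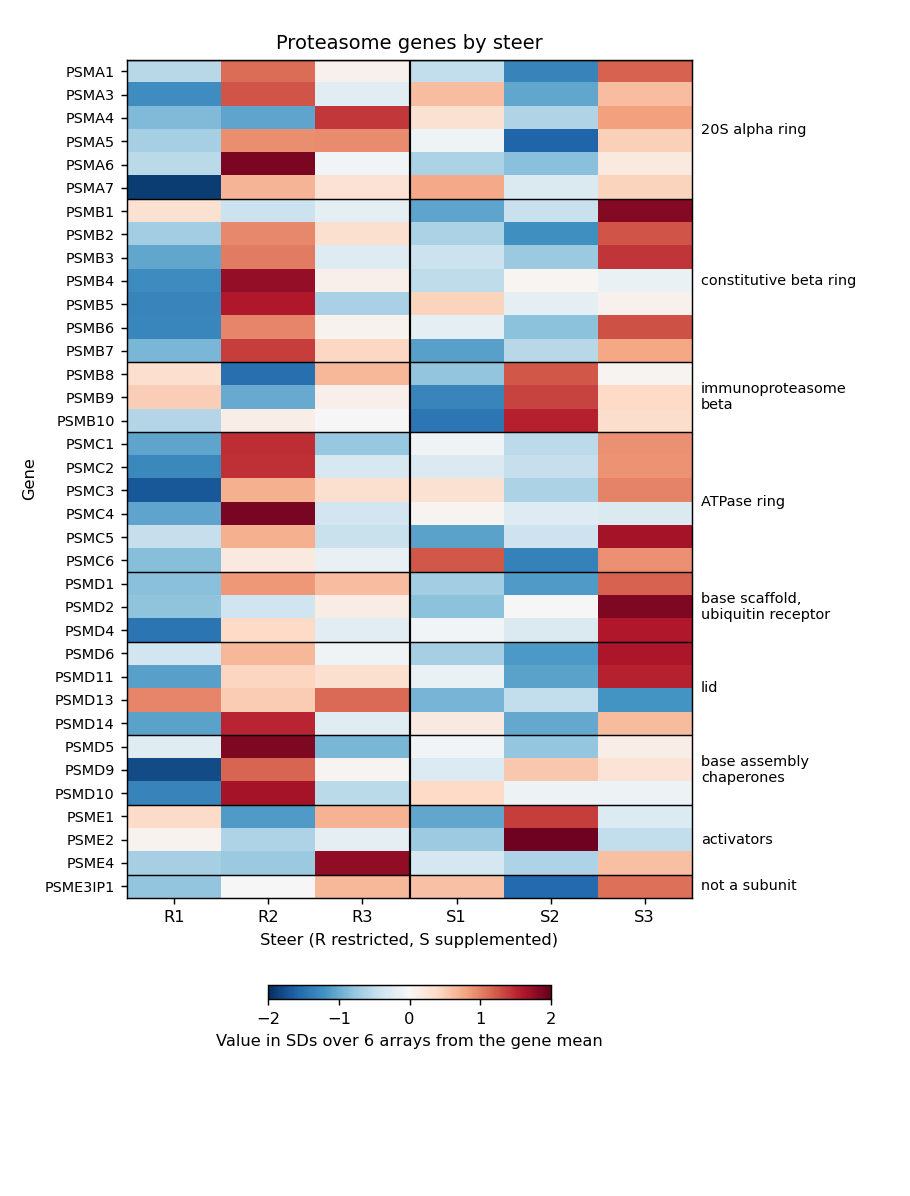
Value of each gene (rows, by role) in each steer (columns, R1 to R3 restricted and S1 to S3 supplemented), in SDs over the 6 arrays from the gene's own mean, blue for low and red for high. Most rows are blue in R1 and S2 and red in R2 and S3, while the rows of PSMB8, PSMB9, PSMB10, PSME1 and PSME2 are red in S2, and the row of PSMD13 divides by diet.

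The 5 immunoproteasome members shared the steer with the highest value and differed in the order of the rest. Supplemented steer 2 was the highest of 6 in 5 of 5, against 17.2% of all genes, and supplemented steer 1 the lowest in 3 and restricted steer 2 in the other 2. Restricted steer 1 exceeded restricted steer 2 in 4 of 5, the reverse of the order in the other subunits, with PSMB10 as the exception. The median of the 5 genes was 0.330, -1.01 and 0.105 SDs over the 6 arrays in restricted steers and -1.05, 1.38 and 0.0616 in supplemented steers. The median of the 30 others was -0.978, 0.968 and -0.00134 in restricted steers and -0.230, -0.612 and 0.855 in supplemented steers. In the ARS-UCD2.0 annotation PSMB8 and PSMB9 lie on either side of TAP1, a subunit of the peptide transporter for antigen presentation, and PSME1 and PSME2 are separated by 1 gene. TAP1 stood at 0.211, 0.762 and -1.56 millionths in restricted steers and at -1.60, 2.90 and -0.713 in supplemented steers, highest in supplemented steer 2. Among the 10 measured antigen processing and interferon genes, which include TAP1, supplemented steer 2 was highest in 3 and lowest in 1, and 6 lay above their own mean there. Over all genes the shares were 17.2%, 16.4% and 49.8%.

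Leukocytes use the immunoproteasome, and their markers moved with part of this order. Of 12 measured leukocyte markers, 10 lay above their own mean in supplemented steer 2, against 49.8% of all genes. That steer was the highest of 6 in 5 of the 12, against 17.2% of all genes. In supplemented steer 3, 7 had their lowest value, against 15.8% of all genes. Supplemented steer 1 was the lowest for 3 immunoproteasome members. There 4 leukocyte markers had their highest value and 0 their lowest, against 15.1% and 18.8% of all genes. The summed deposited values of the leukocyte markers ran from 62.15449 to 62.15450 in restricted steers and from 62.15448 to 62.15451 in supplemented steers. PTPRC, the common leukocyte antigen, was at 1.06, -0.134 and -0.525 SDs over the 6 arrays in restricted steers and at -0.834, 1.40 and -0.965 in supplemented steers. Other markers had another order. CSF1R was highest in supplemented steer 1 at 1.69 SDs, ITGB2 in supplemented steer 3 at 1.77 and CD14 in restricted steer 1 at 1.83. No marker had a mean below the first quartile of probe sets, 1 of 12 had a mean above the third quartile of probe sets and 6 below the median. The part of leukocytes in the order of the immunoproteasome genes was not tested.

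Markers of fat and vessels also differed between these steers. Of 5 adipocyte markers, 5 lay above their own mean in restricted steer 1, against 48.6% of all genes. There 4 had their highest value, against 16.3% of all genes. In restricted steer 2, 2 lay above their mean, against 46.7% of all genes. In supplemented steers 2 and 3, 0 of 5 lay above it, against 49.8% and 53.2% of all genes. The medians of the 5 were -1.22 and -0.682 SDs over the 6 arrays there. Of 5 endothelial markers, 3 had their highest value in restricted steer 1, against 16.3% of all genes. The summed deposited values of these markers ran from 26.90881 to 26.90886 in restricted steers and from 26.90879 to 26.90884 in supplemented steers. The part of fat and vessels in the order of the 30 genes was not tested.

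The medians of the arrays moved against the order of the 30 other genes. They stood at 4.11, -1.15 and 0.375 millionths from their mean in restricted steers and at 1.34, 0.0912 and -4.76 in supplemented steers, highest in restricted steer 1 and lowest in supplemented steer 3. With array medians made equal, restricted steer 2 exceeded restricted steer 1, and supplemented steer 3 supplemented steer 2, in 29 of 30 genes, but the shift also gave this order to 90.1% and 93.8% of all genes. After quantile normalization 1 and 4 of the 30 had it, with equal values in 23 and 21, against 7.64% and 16.3% of all genes. Among the 5 immunoproteasome members, supplemented steer 2 was highest in 1 with equal medians and in 0 with quantile normalization, where it was highest in 3.03% and 1.96% of all genes. Quantile normalization made supplemented steers 2 and 3 equal in 4 of the 5. The range over 6 arrays exceeded the 8.88 millionths between array medians in 27 of the 36 genes and in 21.3% of all genes, and did not in 4 of the 5 immunoproteasome members. The part of the array offset in these orders was not tested.

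**Figure D4:**
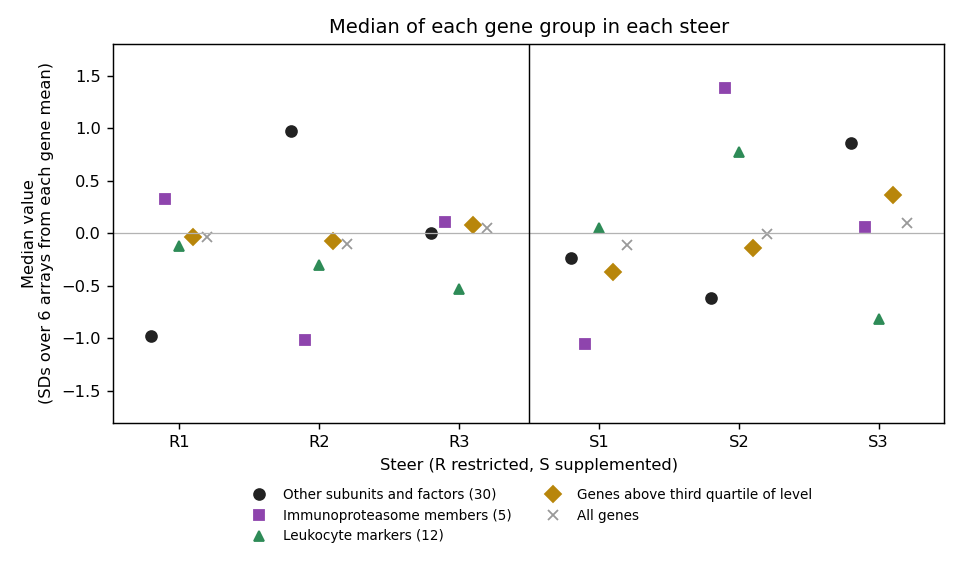
Median over genes of the value in each steer (R1 to R3 restricted, S1 to S3 supplemented), in SDs over the 6 arrays from each gene's own mean. The 30 genes outside the immunoproteasome (black) run from -0.978 in R1 to 0.968 in R2, the 5 immunoproteasome members (purple) peak at 1.38 in S2, and all genes (grey crosses) stay between -0.114 and 0.0957. Green triangles are the 12 leukocyte markers, highest in S2 at 0.772, and gold diamonds the genes with a mean above the third quartile of probe sets.

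For 6 genes the annotation gives 2 probe sets that name no other gene. Both ran in the same direction between the diets in PSMB2, PSMC2, PSMC6 and PSMD4, and in opposite directions in PSMC5 and PSMD6. The lowest steer was the same for both probe sets in 5 of the 6, all but PSMD6, and the highest steer in 2, PSMC5 and PSMD4. In PSMC2, for example, restricted steer 1 was lowest at -13.3 millionths by one probe set and at -13.6 by the other. The second probe set of PSMD6 ran against both orders of steers within a diet given above. It had restricted steers 1 and 2 at -0.226 and -0.616 millionths and supplemented steers 2 and 3 at 1.06 and -0.200. The second probe sets of the other genes kept both orders.

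Genes that work with the proteasome were also measured, in lists that overlap none of the 36 genes. Over all genes, 49.5% had a higher and 50.5% a lower mean in restricted steers. Of 6 genes for assembly and inhibition, 4 had a higher mean in restricted steers (median 0.486 SDs), led by the assembly chaperones PSMG1 at 0.708 and POMP at 0.604 SDs. Of 6 other subunits and bound enzymes 4 were higher (median 0.226 SDs), with the ubiquitin receptor ADRM1 at 1.70 SDs and the deubiquitinase USP14 at -1.08 SDs. Restricted steer 2 exceeded restricted steer 1 in 6 of these 6, against 48.8% of all genes. Supplemented steer 3 exceeded supplemented steer 2 in 3 of 6, against 52.6% of all genes. In the assembly and inhibition list both counts were 3 of 6. None of these genes had an unadjusted p under 0.05.

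Among 9 shuttle and unfoldase genes, 7 had a lower mean in restricted steers (median -0.340 SDs), against 50.5% of all genes. UBQLN2, which carries ubiquitin-tagged proteins to the proteasome, stood at -7.36, -7.50 and 0.463 millionths in restricted steers, against 4.13, 3.36 and 6.91 in supplemented steers. Its groups did not overlap, with a difference of -2.76 SDs, a limma unadjusted p of 0.0192 and an adjusted p of 1.00. Over all genes, 4.59% were lower without overlap. FAF2, which recruits the unfoldase VCP, was at -1.53 SDs.

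Of 5 genes for the transcription of proteasome genes, 4 were lower (median -0.343 SDs), among them NFE2L1, the factor that raises proteasome genes when the proteasome is inhibited, at -0.899 SDs and MAFG, its partner, at -1.09 SDs. Of 9 genes for ubiquitin activation and transfer, 6 were lower (median -0.808 SDs), against 50.5% of all genes. The conjugating enzyme UBE2D2 was at -2.02 SDs (limma unadjusted p = 0.0523). Its groups were apart, as in 4.59% of all genes in that direction. The activating enzyme UBA6 was at -1.45 SDs. Of 10 antigen processing genes, 6 were lower (median -0.195 SDs), with the chaperones PDIA3 at -1.44 SDs and CALR at 0.954 SDs. Over these 6 lists and the markers of fibres, fat, leukocytes and vessels, no gene passed the adjusted threshold.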

How the data were processed

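Muscle of 3 restricted and 3 supplemented steers was hybridised to 1 Affymetrix array each from 100 ng of total RNA, per the labels' protocols. The deposited log2 values of 24128 probe sets were used as the authors gave them. For the log base, background correction, normalization and summarization, the sources used here give nothing. The 112 control probe sets were left out. The other 24016 went into a limma fit (version 3.58.1, R 4.3.3; lmFit, then eBayes with no trend, two-sided, Benjamini-Hochberg over all of them), after multiplication by a factor of 1e+09 that keeps variances off numeric floors. Prior and residual degrees of freedom were 0.483 and 4. Each array is a different steer, so p-values measure the spread between steers, and the number of arrays limits the precision. All 42 proteasome probe sets were found by gene identifier among the genes of ARS-UCD2.0, with 0 changed symbols. No array build is named and no coordinates are given. Promoter sequences were not used here.

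All proteasome genes are named. Values of every steer are given for cutting and immunoproteasome subunits, PSME1, PSME2, genes at an unadjusted p under 0.05 and the gene with the largest difference of each role. Related lists give the 2 genes with the smallest p. PSMD14, UBQLN2, TAP1 and PTPRC were given steer by steer after their values were seen, as was the order of steers. CFD, MYH1, CSF1R, ITGB2 and CD14 were named after theirs. Members and lists were chosen with earlier results of these data known. The fit was checked on simulated data. Alternatives left out each steer, or used age, a replicate block, array weights, other scalings, a level filter, another prior or an average of probe sets per gene.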

Additional observations from a re-analysis of the deposited data

How the results depend on the processing

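PSMD13 kept its direction under all 14 alternatives, from 0.352 SDs with quantile normalization to 6.74 SDs without supplemented steer 2. Many of these could not have reversed it. Its groups did not overlap, so leaving out 1 steer keeps the sign. A balanced replicate block leaves the difference of means as it was. The level filter, the other prior and the average of probe sets gave the same 5.08 SDs as the planned fit. The limma unadjusted p of PSMD13 stayed at or under 0.0245 outside quantile normalization, and its smallest adjusted p was 0.571. The count of proteasome genes past the adjusted threshold was 0 under each. At an unadjusted p under 0.05 the count was 0 with quantile normalization and 1 to 2 when a steer was left out, PSMB5 joining without restricted steer 2 and PSMC6 without supplemented steer 2, at -2.95 SDs. The number of the 36 genes higher in restricted steers was 28 with age as a covariate and 11 to 27 when a steer was left out, and 15 and 19 genes changed sign with age and with quantile normalization. All that changed sign under any alternative had differences of at most 0.873 SDs in size as planned, but so had every one of the 36 except PSMD13. PSMA6 turned to -0.118 SDs with array medians made equal. With quantile normalization PSMA6, PSMB7 and PSMD5 turned to -0.816 SDs and PSMB8 and PSMC6 to 0.816 SDs. That setting made 15456 of the 24016 probe sets equal on all arrays, so signs and sizes under it rest partly on tied values. PSMB8 turned to 0.208 SDs with age and ran from -0.775 to 0.379 SDs when a steer was left out, PSMD5 from -0.723 to 1.10 SDs and PSME2 from -0.941 to 1.22 SDs.

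Over the whole table the count of 1 probe set was 35 with quantile normalization, 0 with age, 0 with the replicate block and 1 to 2 when a steer was left out. Same-numbered steers correlated at 0.0374, 0.0151 and 0.0152 in their deviations from the group means over all probe sets. Each steer correlated best with its own number, but the labels give the numbers no shared source, and steers were not paired. The block gave 13 higher proteasome genes as before, a count fixed in advance because each number occurs once in each diet.

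For the order of steers, alternatives chosen after seeing the data gave 1 and 4 of 30 genes with quantile normalization, against 7.64% and 16.3% of all genes. That setting made the compared steers equal in 23 and 21 of the 30. Equal medians gave 29 and 29 of 30, against 90.1% and 93.8% of all genes. In the immunoproteasome members, quantile normalization made restricted steers 1 and 2 equal in 3 of 5 and supplemented steers 2 and 3 in 4. Among immunoproteasome members, restricted steer 1 exceeded restricted steer 2 in 1 with equal medians and 1 with quantile normalization, against 4 as deposited (9.90% and 25.7% of all genes, against 50.9%). Supplemented steer 2 exceeded supplemented steer 3 in 1 and 0, against 5 (6.20% and 5.75% of all genes, against 47.2%), and was highest in 1 and 0, against 5 (3.03% and 1.96% of all genes, against 17.0%). The cause was not tested.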
